A study of Mus musculus with 15 samples.

Results

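*Fgf3*, *Fgf4* and *Fgf15*, the FGF ligand genes that lie side by side on mouse chromosome 7, and their neighbor *Ccnd1*, the gene of cyclin D1, were followed in RNA-seq of erythro-myeloid progenitors (EMPs) from the yolk sac (YS). These are 4 of the 17454 genes in the deposited table. They were chosen by their position together with their measured RPKM in Tie2-Ezh2-KO and WT EMPs, which were already known, so that contrast is described for them and not tested. The study asked what *Ezh2* does in YS hematopoiesis and compared EMPs in which it was deleted at different stages. All 15 libraries came from individual YS of C57BL/6 embryos at E10.5, and every embryo carried Ezh2fl/fl. The 5 Tie2-Ezh2-KO libraries (replicates 7, 9, 11, 13 and 17) also carried Tie2-CreTg/+, which is active in endothelium and therefore before the endothelial-to-hematopoietic transition (EHT). The 5 Vav-Ezh2-KO libraries (replicates 1, 9, 10, 26 and 28) carried Vav-CreTg/+, which is active from the start of the hematopoietic stage. The 3 Tie2-Ezh2-WT libraries (replicates 4, 10 and 12) and the 2 Vav-Ezh2-WT libraries (replicates 4 and 6) came from Ezh2fl/fl embryos that had no Cre, although their genotype labels read Tie2-Cre+/+ and Vav-Cre+/+. These 5 libraries served together as WT in both comparisons, which therefore share their controls. Tie2-Cre acts in endothelium at large and Vav-Cre in blood cells at large, so the EMPs were not the sole cells of the embryo to lose the gene. The labels give 500 cells per library and the methods of the study a smaller number, and the experiments in which the embryos were collected are not assigned to libraries, so no batch could be examined.

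FGFs are secreted or intracellular proteins, and the secreted ones bind tyrosine kinase receptors together with heparan sulfate or a Klotho protein and signal largely through RAS and MAP kinases. D cyclins bind CDK4 or CDK6 and drive cells from G1 into S phase. EZH2 is the methyltransferase of polycomb repressive complex 2, which keeps many developmental genes silent, and this stretch of chromosome is known from mouse mammary tumors, in which viral insertions switch on *Fgf3* or *Fgf4*.

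Values are RPKM, reads on a gene corrected for gene length and for the depth of the library. Whole reads recovered from the steps between low RPKM values gave 10407398 to 41025074 reads on genes per library, with a median of 16091836. At that depth 1 read was worth between 0.0204 and 0.0805 RPKM for *Fgf3*, between 0.0135 and 0.0532 RPKM for *Fgf15*, and between 0.00642 and 0.0253 RPKM for *Ccnd1*. The cDNA was amplified by PCR, so floors made from reads cover counting error only. The cells had the markers of their label. All 10 EMP markers examined were above 0, *Gfi1b*, a repressor needed in erythroid and megakaryocytic cells, was the most abundant at a mean of 217 RPKM, and the 10 summed to 686 ± 59.5 RPKM in WT, 737 ± 48.8 in Tie2-Ezh2-KO and 659 ± 70.2 in Vav-Ezh2-KO EMPs (SD, n = 5 per group). In limma 0 of the 10 passed an adjusted p of 0.05 in either comparison, with 4 and 1 under an unadjusted p of 0.05 in Tie2-Ezh2-KO and Vav-Ezh2-KO, beside 11% and 7.93% of all genes tested, and limma-voom on the reads also called 0. Of all genes tested 2.73% and 0.00733% passed the adjusted p in limma. The median log2 difference of the 10 was -0.18 and -0.14 in Tie2-Ezh2-KO and Vav-Ezh2-KO, beside 0.01 and -0.02 over all genes. The markers named next, besides *Gfi1b*, were picked after their values were seen. Of the 4 in Tie2-Ezh2-KO 1 was higher, *Gfi1b*, at 267 RPKM beside 208 in WT. The other 3 were lower, namely the Fc receptor genes *Fcgr3*, at 89.4 beside 124 RPKM, and *Fcgr2b*, at 5.60 beside 9.07 RPKM, and the CD45 gene *Ptprc*, at 6.53 beside 10.52 RPKM. In Vav-Ezh2-KO the 1 marker was *Gata2*, higher at 79.1 RPKM beside 56.8.

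The deleted gene itself checks the labels in part. *Ezh2* was at 36.9, 39.5 and 30.1 RPKM in Tie2-Ezh2-WT replicates 4, 10 and 12 and at 42.0 and 41.5 RPKM in Vav-Ezh2-WT replicates 4 and 6. Tie2-Ezh2-KO replicates 7, 9, 11, 13 and 17 had 27.8, 26.3, 24.8, 29.5 and 26.5 RPKM of it, and Vav-Ezh2-KO replicates 1, 9, 10, 26 and 28 had 33.8, 42.5, 37.8, 38.1 and 34.0 RPKM. Each of the 5 Tie2-Ezh2-KO values was lower than each of the 5 WT values, the nearest pair being Tie2-Ezh2-KO replicate 13 and Tie2-Ezh2-WT replicate 12, and the Vav-Ezh2-KO libraries overlapped with WT. Means were 38.0 ± 4.84 RPKM in WT, 27.0 ± 1.78 in Tie2-Ezh2-KO (two-sided exact permutation test over the 252 splits of 10 libraries, p = 0.00794, the smallest it can give) and 37.2 ± 3.56 in Vav-Ezh2-KO EMPs (exact permutation p = 0.849; SD, n = 5 per group). The deletion removes the exons of the SET domain, and the value covers the gene as a whole, so the excised exons cannot be read separately and the level says nothing of the protein. By quantitative PCR the study reported that expression of a deleted exon was lost in EMPs of both knockouts. In limma the log2 difference in Tie2-Ezh2-KO was -0.48 with an adjusted p of 0.0418. This call was lost, with the adjusted p above 0.05 and the log2 difference still between -0.49 and -0.45, when Tie2-Ezh2-WT replicate 4 (0.076) or 10 (0.114), Vav-Ezh2-WT replicate 4 (0.126) or 6 (0.111), or Tie2-Ezh2-KO replicate 7 (0.0802), 11 (0.0976) or 17 (0.0939) was left out. It was also lost with Tie2-Ezh2-WT as sole control (0.344, log2 difference -0.39), without trend (0.0923, -0.48), in limma-voom (0.0818, -0.46) and without the 2 libraries high in visceral endoderm markers described further on (0.137, -0.50).

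In Tie2-Ezh2-KO EMPs 3 of the 4 genes, *Fgf3*, *Fgf15* and *Ccnd1*, were higher in all 5 libraries than in all 5 WT libraries, and the same held for 466 of all 14154 genes tested (3.29%). Across those genes limma called 386 (2.73%), 343 higher and 43 lower, at an adjusted p under 0.05, 1552 (11%) were at an unadjusted p under 0.05, limma-voom on the recovered reads called 338 (2.39%), and 101 (0.714%) were lower in all 5 Tie2-Ezh2-KO libraries than in all 5 WT libraries. Nothing is read from these shares for the 4 genes, since that contrast chose them. To be tested, a gene had to exceed 0.2 RPKM in 1 or more of the libraries compared. All 4 did, but *Fgf4* and *Fgf15* passed this filter through Tie2-Ezh2-KO libraries alone, and 2 of the 4, *Fgf3* and *Ccnd1*, were above it in a WT library. The choice did not use the Vav-Ezh2-KO values, but it used the WT libraries that are the controls here, so this comparison is not independent of it. In Vav-Ezh2-KO EMPs limma tested 3 of the 4, of which *Fgf15* passed the filter through Vav-Ezh2-KO libraries alone. It called 0 of the 3, against 1 of 13646 genes (0.00733%), with 1082 (7.93%) of all genes at an unadjusted p under 0.05. That 1 gene was *Sva*, named after its value was seen. The Vav-Ezh2-KO count was 2 without Tie2-Ezh2-WT replicate 10 or 12 or without Vav-Ezh2-WT replicate 4, 2 with the Vav-Ezh2-WT libraries as the controls, and 0 in limma-voom on the recovered reads.

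*Fgf3* encodes a secreted FGF that is needed for the inner ear and the tail of the embryo, and it was the most abundant of the 4 genes in every library. It stood at 6.28, 4.56 and 6.84 RPKM in Tie2-Ezh2-WT replicates 4, 10 and 12 and at 10.2 and 10.3 RPKM in Vav-Ezh2-WT replicates 4 and 6, from 78 to 335 reads. Tie2-Ezh2-KO replicates 7, 9, 11, 13 and 17 had 55.3, 38.4, 26.4, 26.2 and 32.3 RPKM, from 467 to 1053 reads. Vav-Ezh2-KO replicates 1, 9, 10, 26 and 28 had 10.3, 10.2, 13.4, 9.17 and 5.86 RPKM. The Tie2-Ezh2-KO libraries lay above every other library, with replicate 7 highest and replicates 11 and 13 lowest, whereas Vav-Ezh2-KO and WT libraries overlapped. The mean was 7.63 ± 2.52 RPKM in WT and 35.7 ± 12.1 in Tie2-Ezh2-KO (SD, n = 5 per group), a ratio of 4.68 and a difference of 2.20 ± 0.24 (SE) on the log2(RPKM + 0.2) scale, which understates the change of low genes. In a bulk library, more cells of a kind that express a gene and more RNA of it per cell cannot be told apart. In Vav-Ezh2-KO EMPs the mean was 9.79 ± 2.71 RPKM (SD, n = 5), 0.37 ± 0.24 (SE) above WT on the log2 scale with a 95% interval of -0.15 to 0.89 (limma, adjusted p = 0.72; exact permutation test, p = 0.254). This difference turned to -0.11 ± 0.26 (SE; limma, adjusted p = 0.94) against the Vav-Ezh2-WT libraries alone, since *Fgf3* averaged 10.2 ± 0.0714 RPKM (SD, n = 2) in the Vav-Ezh2-WT libraries but 5.89 ± 1.19 (SD, n = 3) in the Tie2-Ezh2-WT ones. Without Tie2-Ezh2-WT replicate 10 it was 0.20 and without Vav-Ezh2-KO replicate 10 it was 0.24. Over its alternatives it ran from -0.11 to 0.54 and the adjusted p from 0.612 to 0.94.

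*Fgf15* encodes a ligand best known as the hormone by which the ileum lowers bile acid synthesis in the liver, and it is also made in the embryonic nervous system. Among the WT libraries it was listed at 0 in 4, and Tie2-Ezh2-WT replicate 12, the deepest library, had 0.162 RPKM from 12 reads. Tie2-Ezh2-KO replicates 7, 9, 11, 13 and 17 had 3.65, 6.99, 1.64, 0.536 and 2.85 RPKM, from 105, 193, 44, 26 and 83 reads. Vav-Ezh2-KO replicates 1 and 10 had 0.353 and 0.328 RPKM, from 18 and 10 reads, and replicates 9, 26 and 28 were at 0. Every Tie2-Ezh2-KO library held *Fgf15* reads and lay above every other library, and the spread among them was wide, with replicate 9 highest and replicate 13 lowest. The mean was 0.0324 ± 0.0724 RPKM in WT and 3.13 ± 2.46 in Tie2-Ezh2-KO (SD, n = 5 per group), a ratio of 96.8 and a difference of 3.52 ± 0.49 (SE) on the log2(RPKM + 0.2) scale. Taken over all reads of each group, 451 against 12, the rate per mapped read was 43.1 times that of WT. Both ratios rest on Tie2-Ezh2-WT replicate 12, which held all 12 WT reads. Without it the WT group was at 0, and the rate was at least 103-fold higher against a floor of 3 reads over the 4 other WT libraries. That figure leaves out the deepest WT library and is no lower limit for the whole WT group. For all WT libraries the 95% interval of the 43.1 was 24.5 to 84.1, which covers counting error only. The ratios and this floor describe the contrast that chose *Fgf15* and test nothing. In Vav-Ezh2-KO EMPs the mean was 0.136 ± 0.187 RPKM (SD, n = 5), 0.40 ± 0.36 (SE) above WT on the log2 scale. No p-value is given for this difference, because *Fgf15* passed the filter here through Vav-Ezh2-KO libraries alone. It was 0.13 to 0.77 over the alternatives, with 0.18 without Vav-Ezh2-KO replicate 1 and 0.20 without replicate 10. The size of the log2 difference in Tie2-Ezh2-KO depends on the pseudocount, with 1.79 at a pseudocount of 1 and 5.15 at 0.05.

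*Fgf4* encodes a secreted FGF that the inner cell mass needs to grow and that signals in the limb bud. It was detected in 2 of the 15 libraries, Tie2-Ezh2-KO replicate 7 with 0.290 RPKM from 14 reads and replicate 17 with 0.0410 RPKM from 2 reads. The other 3 Tie2-Ezh2-KO libraries, all 5 WT and all 5 Vav-Ezh2-KO libraries were at 0, where 3 reads would have been worth 0.0241 to 0.0951 RPKM. These read numbers rest on a length of 3030 bases, that of a RefSeq transcript of *Fgf4*. The values by themselves are also whole at 1515 bases, which would make them 7 reads and 1 read. *Fgf4* was thus close to or under the limit of detection at this depth, and 1 library carried nearly all of its reads. The group mean in Tie2-Ezh2-KO was 0.0662 ± 0.126 RPKM (SD, n = 5), a difference from WT of 0.31 ± 0.28 (SE) on the log2(RPKM + 0.2) scale that ran from 0.09 to 1.49 over the alternatives. Against a floor of 3 reads over the whole WT group the rate was at least 6.12-fold higher (3.06-fold at the shorter length), and without Tie2-Ezh2-KO replicate 7 the remaining 2 reads allow no fold. This floor describes the contrast that chose *Fgf4* and tests nothing. It could not be tested in Vav-Ezh2-KO.

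*Ccnd1* lies on the other strand from the FGF genes and was a low-level gene in these cells. It was at 0.481, 0.733 and 0.719 RPKM in Tie2-Ezh2-WT replicates 4, 10 and 12 and at 0.584 and 1.12 RPKM in Vav-Ezh2-WT replicates 4 and 6, from 19 to 112 reads. Tie2-Ezh2-KO replicates 7, 9, 11, 13 and 17 had 1.64, 2.50, 2.28, 2.57 and 2.57 RPKM, from 99 to 262 reads. Vav-Ezh2-KO replicates 1, 9, 10, 26 and 28 had 0.289, 0.300, 0.453, 1.35 and 0.156 RPKM, from 17 to 59 reads. The Tie2-Ezh2-KO libraries again lay above all others, with replicate 7 lowest, the library that was highest for *Fgf3*. In Vav-Ezh2-KO 4 of the 5 libraries lay below every WT library and replicate 26 above every one of them. The mean was 0.728 ± 0.244 RPKM in WT and 2.31 ± 0.396 in Tie2-Ezh2-KO (SD, n = 5 per group), a ratio of 3.18 and a difference of 1.46 ± 0.27 (SE) on the log2(RPKM + 0.2) scale. The Vav-Ezh2-KO mean was 0.510 ± 0.482 RPKM (SD, n = 5), a log2 difference of -0.56 ± 0.37 (SE) with a 95% interval of -1.34 to 0.23 (limma, adjusted p = 0.718; exact permutation test, p = 0.214). At a pseudocount of 1 the Tie2-Ezh2-KO difference was 0.94. The Vav-Ezh2-KO log2 difference was -0.89 without Vav-Ezh2-KO replicate 26 and -0.36 without replicate 28. Over all its alternatives it ran from -1.13 in limma-voom to -0.23 at a pseudocount of 1, and the adjusted p from 0.372 to 0.884.

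**Figure D1:**
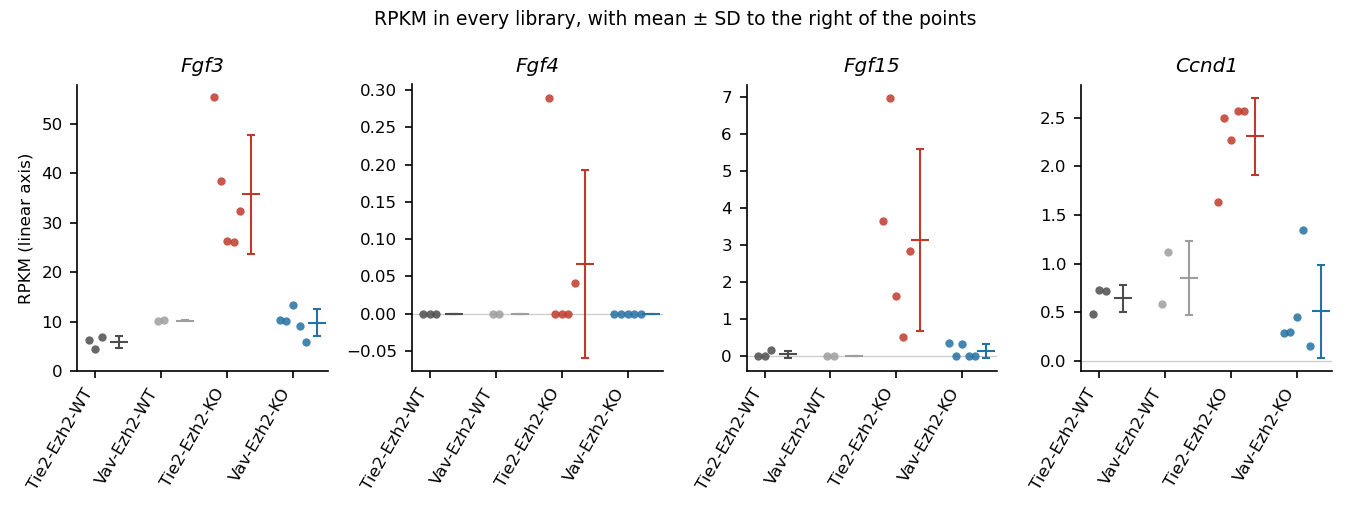
RPKM on a linear axis of *Fgf3*, *Fgf4*, *Fgf15* and *Ccnd1* in each of the 15 libraries (points), by group, with the group mean and SD drawn beside the points (n = 3, 2, 5 and 5). The 5 Tie2-Ezh2-KO libraries lie above all others for *Fgf3* (26.2 to 55.3 RPKM), *Fgf15* (0.536 to 6.99) and *Ccnd1* (1.64 to 2.57), and for *Fgf4* 2 of them are above 0. The contrast with WT chose these genes and is not tested.

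In the order of group means Tie2-Ezh2-KO came first for each of the 4 genes, and for *Fgf3*, *Fgf15* and *Ccnd1* its range did not touch that of the next group. For *Fgf3* the order went on with Vav-Ezh2-WT, Vav-Ezh2-KO and Tie2-Ezh2-WT, for *Fgf15* with Vav-Ezh2-KO, Tie2-Ezh2-WT and Vav-Ezh2-WT, and for *Ccnd1* with Vav-Ezh2-WT, Tie2-Ezh2-WT and Vav-Ezh2-KO, and in each of these orders neighbors overlapped in range. The lowest of the Vav-Ezh2-WT libraries was above the highest of the Tie2-Ezh2-WT ones for *Fgf3*, and no other pair of the lower groups was apart for *Fgf3*, *Fgf15* or *Ccnd1*. Within a group the genes did not keep a fixed ratio. The RPKM of *Fgf15* was between 0.0205 and 0.182 of that of *Fgf3* across the Tie2-Ezh2-KO libraries.

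Set among all genes of the table, *Fgf3* was a gene of middle abundance in WT EMPs, where 34.4% of genes had a higher mean RPKM, and in Tie2-Ezh2-KO EMPs 16.4% had. For *Fgf15* the share of genes with a higher mean went from 79.5% in WT to 45.2% in Tie2-Ezh2-KO and for *Ccnd1* from 58.4% to 48.7%. *Fgf3* made up most of the RPKM summed over the FGF ligand genes in every group, 75.3 ± 11.6% in WT, 79.5 ± 5.23% in Tie2-Ezh2-KO and 71.9 ± 1.17% in Vav-Ezh2-KO EMPs (SD, n = 5 per group). The summed ligand RPKM was 9.94 ± 2.07, 44.7 ± 13.2 and 13.6 ± 3.66 in the same order, so the ligand pool of these cells was largely *Fgf3*. *Ccnd1*, by contrast, was a minor D cyclin, at 0.232 ± 0.0713% of the RPKM summed over *Ccnd1*, *Ccnd2* and *Ccnd3* in WT, 0.712 ± 0.199% in Tie2-Ezh2-KO and 0.160 ± 0.127% in Vav-Ezh2-KO EMPs (SD, n = 5 per group).

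The 4 genes lie within 101 kb, from 144838612 to 144939831 on chromosome 7 of GRCm38. *Fgf3* (144838612 to 144843348), *Fgf4* (144861386 to 144865245) and *Fgf15* (144896532 to 144900953) are on the plus strand with 18.0 and 31.3 kb between them, and *Ccnd1* (144929931 to 144939831) is on the minus strand 29.0 kb beyond *Fgf15*. The table holds 10 other genes within 1 Mb on either side. In Tie2-Ezh2-KO EMPs limma tested 9 of these and called 1, with 2 at an unadjusted p under 0.05, beside 2.73% and 11% of all genes. In Vav-Ezh2-KO EMPs it tested 8 and called 0, with 0 at an unadjusted p under 0.05 and 0 called by limma-voom, beside 0.00733%, 7.93% and 0% of all genes. Neither gene inside the interval was called. *Oraov1*, which encodes a ribosome biogenesis factor, averaged 5.22 ± 1.21 RPKM in WT and 6.71 ± 1.83 in Tie2-Ezh2-KO (SD, n = 5 per group), a log2 difference of 0.34 ± 0.23 (SE; limma, adjusted p = 0.74), and *Bc1*, a small noncoding RNA, had at most 2 reads in any library. Upstream, *Ano1*, a chloride channel gene and the nearest on that side, was at 0 in all 5 WT libraries, and Tie2-Ezh2-KO replicates 7, 9, 11, 13 and 17 had 0.218, 0, 0.293, 0.186 and 0.162 RPKM. Its libraries overlapped with WT through replicate 9, and limma gave an adjusted p of 0.155 for all libraries and 0.0369 without that replicate. The next gene, *Fadd*, an adaptor of death receptors, was level at 10.6 ± 0.703 RPKM in WT and 10.6 ± 0.739 in Tie2-Ezh2-KO EMPs (SD, n = 5 per group; limma, adjusted p = 0.999). *Ppfia1*, which encodes the scaffold protein liprin-alpha, averaged 8.38 and 9.54 RPKM (limma, adjusted p = 0.92).

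The called neighbor was *Cttn*, which encodes the actin-binding protein cortactin and lies 367 kb from the interval. Its WT libraries ranged from 16.6 to 28.9 RPKM, and Tie2-Ezh2-KO replicates 7, 9, 11, 13 and 17 had 34.3, 29.6, 48.9, 44.5 and 32.9 RPKM. All 5 lay above WT, replicate 9 by less than 1 RPKM. *Cttn* rose from 21.9 ± 5.81 to 38.0 ± 8.22 RPKM (SD, n = 5 per group), by 0.80 ± 0.19 (SE) on the log2(RPKM + 0.2) scale (limma, adjusted p = 0.031). The call was lost, with the log2 difference still between 0.71 and 0.83, when Tie2-Ezh2-WT replicate 4 (adjusted p = 0.0736 in limma) or 12 (0.0823), Vav-Ezh2-WT replicate 6 (0.0827) or Tie2-Ezh2-KO replicate 7 (0.0568), 11 (0.0848) or 13 (0.0806) was left out, and likewise with the Tie2-Ezh2-WT libraries alone as controls (0.101), without a filter (0.0689), without trend (0.0822) and without the 2 libraries high in visceral endoderm markers (0.123). Over all alternatives the adjusted p ran from 0.00995 to 0.123. In Vav-Ezh2-KO EMPs *Cttn* averaged 22.5 ± 2.71 RPKM (SD, n = 5), a log2 difference of 0.07 ± 0.16 (SE; limma, adjusted p = 0.936). On the far side of *Ccnd1* the table holds *Tpcn2*, an endolysosomal cation channel gene, at 1.56 RPKM in WT and 1.34 in Tie2-Ezh2-KO EMPs (limma, adjusted p = 0.957), and *1810010D01Rik*, with at most 4 reads in any library.

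**Figure D2:**
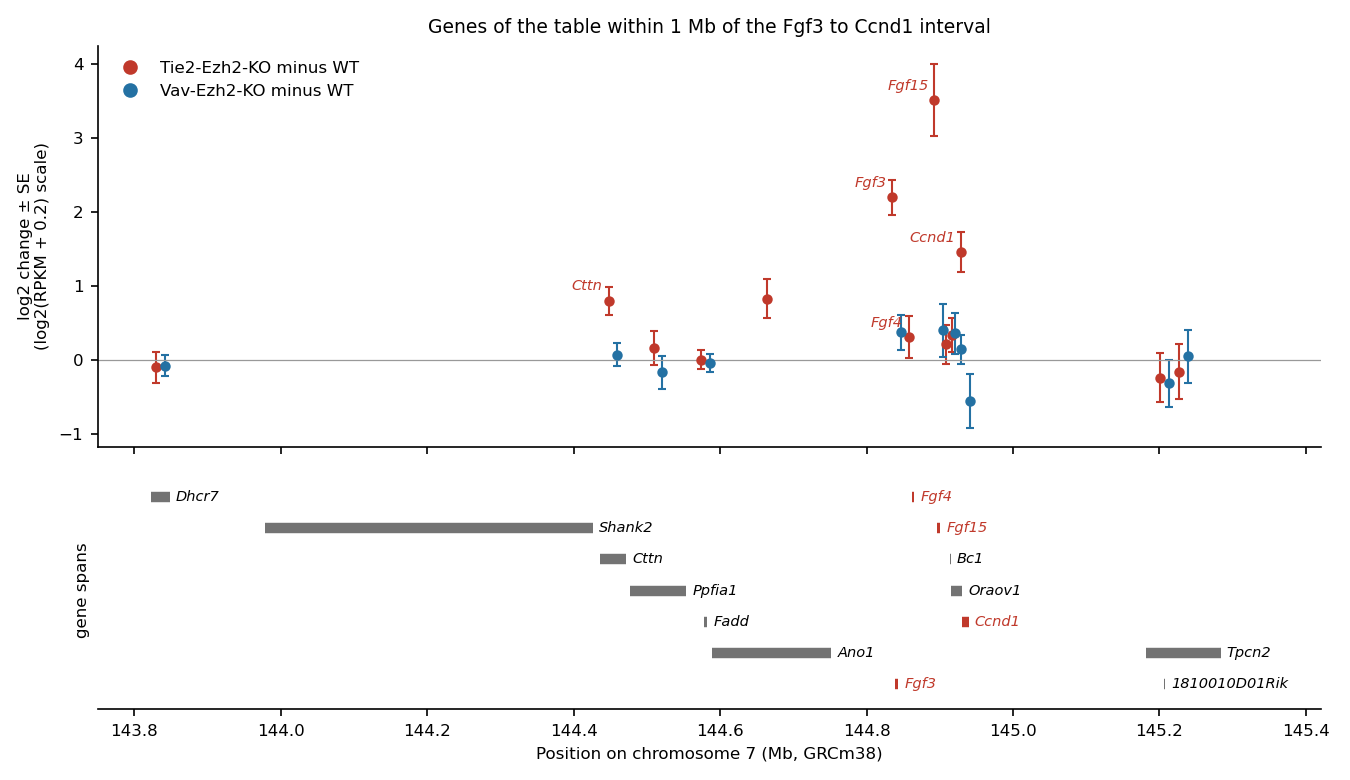
Upper panel, log2 difference (log2(RPKM + 0.2) scale) with its SE of each tested gene within 1 Mb of the *Fgf3* to *Ccnd1* interval, Tie2-Ezh2-KO minus WT and Vav-Ezh2-KO minus WT (n = 5 libraries each), at the middle of the gene with the comparisons set slightly apart; lower panel, gene spans to scale on chromosome 7 of GRCm38. The differences of *Fgf15* (3.52), *Fgf3* (2.20), *Ccnd1* (1.46) and *Fgf4* (0.31) in Tie2-Ezh2-KO are those of the contrast that chose these genes. Their height beside the neighbors therefore tests nothing. Of the neighbors *Ano1* (0.83) and *Cttn* (0.80) were highest.

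The library kit does not mark strand, so reads of overlapping genes on opposite strands cannot be told apart. *Ccnd1* and *Oraov1* overlap by 818 bases. GENCODE places 1100 exonic bases of *Oraov1*, there named LTO1, on the 4709 exonic bases of *Ccnd1*, and 761 and 26 exonic bases of the antisense genes *Gm26793* and *Gm39119* on the 3058 exonic bases of *Fgf15*. The values of *Fgf15* and *Ccnd1* may therefore include reads from the other strand, which was not tested. *Fgf3* and *Fgf4* share no exonic base with another GENCODE gene.

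Promoter sequence was at hand for 2 of the 4 genes, *Fgf3* and *Fgf4*, and those of *Fgf15* and *Ccnd1* were not used here. The sequences are shown because the neighboring ligand genes differed so widely in level, and because polycomb repressive complex 2 is known to act at CpG-rich promoters. Each runs from 250 bases before the start of the gene to 50 bases into it on the plus strand of GRCm38.p6, chr7:144838362-144838661 for *Fgf3* and chr7:144861136-144861435 for *Fgf4*, with CpG dinucleotides in capitals.
*Fgf3*: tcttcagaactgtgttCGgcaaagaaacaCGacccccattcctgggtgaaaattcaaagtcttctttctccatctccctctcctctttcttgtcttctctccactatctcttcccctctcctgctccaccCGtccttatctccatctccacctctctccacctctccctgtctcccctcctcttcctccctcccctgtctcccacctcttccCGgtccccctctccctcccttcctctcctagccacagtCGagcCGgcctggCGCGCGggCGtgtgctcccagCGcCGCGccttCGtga
*Fgf4*: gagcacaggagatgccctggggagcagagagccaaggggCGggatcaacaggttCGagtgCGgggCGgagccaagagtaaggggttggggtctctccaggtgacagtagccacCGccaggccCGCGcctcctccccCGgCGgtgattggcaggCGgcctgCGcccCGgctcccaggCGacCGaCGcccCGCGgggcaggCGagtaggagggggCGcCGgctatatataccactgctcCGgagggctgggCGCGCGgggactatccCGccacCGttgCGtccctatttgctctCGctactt
The *Fgf3* promoter held 14 CpGs at a GC content of 59.3%, an observed-to-expected CpG ratio of 0.748, and the *Fgf4* promoter 28 CpGs at 69.7% with a ratio of 0.774. Among 32851 promoters of the same length the median was 7 CpGs and 52.7% GC, and 36.3% held at least as many CpGs as that of *Fgf3* and 14.2% at least as many as that of *Fgf4*. On either strand the GC box core GGGCGG was found 2 times in the *Fgf4* and 0 times in the *Fgf3* promoter (35.7% of all promoters hold it), the TATA motif TATAAA in neither (13.6%), and the TCF/LEF core CTTTGA 1 time in the *Fgf3* and 0 times in the *Fgf4* promoter (16.0%). Only these exact runs were counted, so a similar one such as the tatatata in the *Fgf4* sequence was not. A match is a run of letters and not a binding site.

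The FGF pathway was followed beyond the cluster. Of 66 of its genes other than *Fgf3*, *Fgf4* and *Fgf15*, 58 were in the table. In Tie2-Ezh2-KO EMPs 40 were tested and limma called 1, with 4 at an unadjusted p under 0.05 and a median log2 difference of 0.12. Over all genes tested 2.73% were called, 11% were at an unadjusted p under 0.05 and the median was 0.01, so the share called was near that of all genes. In Vav-Ezh2-KO EMPs 41 were tested and limma called 0, beside 0.00733% of all genes, with 5 at an unadjusted p under 0.05, beside 7.93%. Limma-voom called 0, and the median was -0.04, beside -0.02 over all genes. The called gene was a ligand in name, *Fgf13*, whose protein stays inside the cell and binds sodium channels and microtubules. *Fgf13* was at 1.58, 2.82, 1.45, 1.54 and 1.85 RPKM in the WT libraries and Tie2-Ezh2-KO replicates 7, 9, 11, 13 and 17 had 4.53, 4.70, 7.12, 4.02 and 3.81 RPKM. All 5 were above WT, and the 5 Vav-Ezh2-KO libraries, at 2.03 to 3.98 RPKM, lay between or overlapped with both. It rose from 1.85 ± 0.563 to 4.84 ± 1.33 RPKM (SD, n = 5 per group), by 1.30 ± 0.25 (SE) on the log2 scale (limma, adjusted p = 0.00967). The adjusted p was 0.0797 with Tie2-Ezh2-WT as sole control and 0.0615 without the 2 libraries high in visceral endoderm markers, where fewer libraries enter and the log2 difference was 1.25 and 1.28, and it ran from 0.00293 to 0.0797 over all alternatives. In Vav-Ezh2-KO EMPs *Fgf13* averaged 2.98 ± 0.695 RPKM (SD, n = 5), a log2 difference of 0.65 ± 0.24 (SE; limma, adjusted p = 0.544).

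The receptors stood low. Of 5 receptors and co-receptors tested in Tie2-Ezh2-KO, limma called 0, with 1 at an unadjusted p under 0.05 and 0 called by limma-voom, beside 2.73% called and 11% at an unadjusted p under 0.05 over all genes. All 5 were higher in sign, with a median log2 difference of 0.61 beside 0.01 over all genes. In Vav-Ezh2-KO it also called 0 of 5, beside 0.00733% of all genes, with 2 at an unadjusted p under 0.05, beside 7.93%. Limma-voom called 0 there, and the median was -0.20 beside -0.02. The most abundant were *Fgfrl1*, a receptor without a kinase domain, at 0.911 ± 0.622 RPKM in WT and 2.12 ± 1.13 in Tie2-Ezh2-KO EMPs, *Fgfbp3*, a carrier protein of FGFs, at 1.44 ± 0.756 and 1.49 ± 0.484, and *Flrt3*, a membrane protein that binds FGF receptors, at 1.15 ± 0.686 and 1.81 ± 0.976 (SD, n = 5 per group). Of the kinase receptors, picked out for their role, *Fgfr1* averaged 0.346 RPKM in WT, 0.783 in Tie2-Ezh2-KO and 0.666 in Vav-Ezh2-KO EMPs, and *Fgfr3* 0.671, 0.840 and 0.532 RPKM. *Fgfr4*, the main receptor of the FGF15 hormone, was at 0 in all 15 libraries, its co-receptor gene *Klb* was at 0 in 13 of them, and *Fgfr2* was above 0 in 2 Tie2-Ezh2-KO libraries alone, at no more than 0.139 RPKM.

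Downstream of the receptors stand signal transducers and response genes. The 17 signal transducers in the table had WT means from 0.119 to 65.4 RPKM. All 17 were tested in both comparisons and limma called 0, with 1 and 2 at an unadjusted p under 0.05 in Tie2-Ezh2-KO and Vav-Ezh2-KO, and limma-voom called 0. Over all genes 2.73% and 0.00733% were called and 11% and 7.93% were at an unadjusted p under 0.05. The median log2 difference of the transducers was -0.02 and -0.08, beside 0.01 and -0.02 over all genes. The RAS gene *Nras* averaged 65.4 ± 29.6 RPKM in WT and 63.4 ± 13.4 in Tie2-Ezh2-KO (SD, n = 5 per group). *Grb2*, the adaptor that links receptors to RAS, averaged 59.1 ± 7.24 and 46.4 ± 2.69 RPKM, with all 5 Tie2-Ezh2-KO libraries below WT (limma, adjusted p = 0.143). Of the feedback inhibitors and response genes limma called 0 of 14 in Tie2-Ezh2-KO and 0 of 15 in Vav-Ezh2-KO, with 1 and 0 at an unadjusted p under 0.05, beside the same shares over all genes, and limma-voom called 0. Their medians were 0.16 and 0.05. The most abundant of them, the immediate early genes, went different ways without passing the test. *Egr1* averaged 114 ± 25.4 RPKM in WT and 96.3 ± 29.3 in Tie2-Ezh2-KO EMPs, *Fos* 96.7 ± 59.2 and 156 ± 77.1 RPKM, and *Ier3* 49.1 ± 22.6 and 26.4 ± 10.45 RPKM (SD, n = 5 per group).

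*Ccnd1* belongs to the G1 machinery, in which D cyclins and CDK4 or CDK6 inactivate the retinoblastoma proteins and CDK inhibitors hold them back. Of 19 genes of this axis other than *Ccnd1*, limma called 1 in Tie2-Ezh2-KO, with 5 at an unadjusted p under 0.05 and a median log2 difference of 0.08, beside 2.73%, 11% and 0.01 over all genes. In Vav-Ezh2-KO it called 0 of 17, with 0 at an unadjusted p under 0.05 and 0 called by limma-voom, beside 0.00733%, 7.93% and 0% of all genes. The D cyclin of these cells by level was *Ccnd3*, at 302 ± 28.9 RPKM in WT, 316 ± 54.2 in Tie2-Ezh2-KO and 285 ± 36.7 in Vav-Ezh2-KO EMPs, and its partner *Cdk4* was at 770 ± 27.4, 762 ± 48.9 and 756 ± 27.1 RPKM (SD, n = 5 per group). The inhibitor gene *Cdkn2d* averaged 89.1, 90.2 and 96.6 RPKM. The called gene was *Cdkn1c*, an imprinted CDK inhibitor on the same chromosome. Its WT libraries had 4.70, 1.89, 1.996, 0.415 and 2.50 RPKM and Tie2-Ezh2-KO replicates 7, 9, 11, 13 and 17 had 12.7, 5.96, 9.80, 8.58 and 8.67 RPKM, with no overlap. *Cdkn1c* rose from 2.30 ± 1.55 to 9.15 ± 2.45 RPKM (SD, n = 5 per group), by 2.14 ± 0.42 (SE) on the log2 scale (limma, adjusted p = 0.0115). In Vav-Ezh2-KO EMPs it averaged 0.910 ± 0.487 RPKM (SD, n = 5), a log2 difference of -1.04 ± 0.49 (SE; limma, adjusted p = 0.638), and the effects of the knockouts, here each against the WT of its own Cre line, differed by 2.04 ± 0.73 (SE; limma interaction, adjusted p = 0.511).

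*Ccnd1* is also a known target of beta-catenin. Of 11 other beta-catenin target genes in the table limma tested 9 in Tie2-Ezh2-KO and called 0, with 5 at an unadjusted p under 0.05, all higher, 8 of 9 higher in sign and a median log2 difference of 0.72, beside 2.73% called, 11% at an unadjusted p under 0.05 and a median of 0.01 over all genes. Limma-voom called 1 of them, *Nkd2*, an inhibitor of Wnt signaling named for that call. In Vav-Ezh2-KO limma called 0 of 7, with 0 at an unadjusted p under 0.05, 0 called by limma-voom and a median of -0.09. Over all genes these were 0.00733%, 7.93%, 0% and -0.02. The most abundant was *Znrf3*, which encodes a ubiquitin ligase that removes Wnt receptors, at 3.82 ± 2.04 RPKM in WT and 5.50 ± 1.23 in Tie2-Ezh2-KO EMPs (limma, adjusted p = 0.494), and *Tcf7*, a partner of beta-catenin on DNA, was at 0.437 ± 0.276 and 1.37 ± 0.689 RPKM (SD, n = 5 per group; limma, adjusted p = 0.122). Of the factors known to bind at the genes studied here, *Nanog* averaged 44.5 ± 15.2 RPKM in WT, 46.3 ± 9.40 in Tie2-Ezh2-KO and 46.3 ± 15.3 in Vav-Ezh2-KO EMPs (SD, n = 5 per group). Near-identical pseudogene copies of *Nanog* exist and 1 alignment was kept per read, so the source of these reads is uncertain. *Nr1h4*, the bile acid receptor that drives *Fgf15* in the ileum, was at 0 in all 15 libraries, and *Pou5f1* and *Sox2* were not analysed here.

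Across the 15 libraries the genes whose log2(RPKM + 0.2) followed that of each of the 4 most closely were ranked by Pearson r over 14393 genes, as a description of libraries that share group and depth. For *Fgf3* they were *Spint2* (0.962), *Hoxb13* (0.940), *Lrrc42* (0.938), *Msx2* (0.926) and *Serpine2* (0.922), and for *Fgf15* they were *Hs6st2* (0.942), *Hoxb13* (0.933), *Ldhb* (0.930), *Serinc2* (0.928) and *Spint2* (0.928). *Spint2* and *Hoxb13* stand in both lists. For *Ccnd1* they were *Aebp1* (0.920), *Fndc3c1* (0.918), *Smagp* (0.914), *Cela1* (0.903) and *Tcf15* (0.901). For *Fgf4* they included *Pax9* (0.997), *Gm996* (0.986), *Scube2* (0.982) and *Psg22* (0.978), each of which was highest in Tie2-Ezh2-KO replicate 7, so this likeness rests on 1 library. Once group means were subtracted, 0 of the 5 stayed among the 5 most alike for *Fgf3* and *Fgf15*, 1 did for *Ccnd1* and 4 did for *Fgf4*.

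Markers of other cell types were examined because a sorted population can hold other cells. By the study's gating EMPs lacked SCA1 and lineage markers and carried KIT, CD41 and CD16/32. Its antibodies for sorting included TER119, a mark of erythroid cells, and F4/80, a mark of macrophages, and a gate on these would remove the cells that carry them. The 10 visceral endoderm markers, led by *Trf* at a mean of 21.6 RPKM, were all above 0 and summed to 199 RPKM in Tie2-Ezh2-WT replicate 4 and 276 RPKM in Tie2-Ezh2-KO replicate 7, against 10.3 to 34.8 RPKM in the other 13 libraries. Tie2-Ezh2-KO replicate 7 is also the library with the most *Fgf3* and with 14 of the 16 *Fgf4* reads. Without these 2 libraries, a choice made after seeing the data, *Fgf3* was at 7.96 ± 2.78 RPKM in WT and 30.8 ± 5.81 in Tie2-Ezh2-KO EMPs (SD, n = 4 in both), *Fgf15* at 0.0405 ± 0.0809 and 3.01 ± 2.82, and *Ccnd1* at 0.790 ± 0.232 and 2.48 ± 0.140 RPKM. The log2 differences were then 1.98, 3.33 and 1.46, near those with all libraries. Limma called 217 genes in Tie2-Ezh2-KO without them and 386 with them, and 1 gene in Vav-Ezh2-KO in either case.

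Several lists held genes that were higher in Tie2-Ezh2-KO, as *Fgf3*, *Fgf15* and *Ccnd1* were. The 6 primitive erythroid markers, all above 0 and led by *Hbb-bh1* at a mean of 165 RPKM, summed to 151, 132, 148, 72.0 and 122 RPKM in the WT libraries, to 318, 590, 865, 200 and 291 RPKM in the Tie2-Ezh2-KO libraries by replicate number, and to 65.7 to 159 RPKM in Vav-Ezh2-KO EMPs. *Hba-x*, an embryonic alpha-type globin, rose from 1.36 to 167 RPKM, by 6.33 ± 0.62 (SE) on the log2 scale (limma, adjusted p = 8.88e-05, and 3.05e-05 to 0.0786 over the alternatives, the latter in limma-voom at a log2 difference of 6.38), and *Hbb-bh1* by 1.18 ± 0.29 (SE; limma, adjusted p = 0.0441), a call that held in 6 of 21 alternatives. With 1 library left out it held without Tie2-Ezh2-KO replicate 13 or 17 and was lost without any other (0.0535 to 0.101). It was also lost with Tie2-Ezh2-WT as sole control (0.246), without the 2 libraries high in visceral endoderm markers (0.123), without trend (0.118), without a filter (0.114), in limma-voom (0.0851), scaled to a common median (0.0556) and with a filter of a mean of at least 1 RPKM (0.0525), at log2 differences of 0.91 to 1.24. Among the Tie2-Ezh2-KO libraries replicate 11 had the highest primitive erythroid sum and close to the lowest *Fgf3*, replicate 9 had the next highest sum, the next highest *Fgf3* and the highest *Fgf15*, and replicate 13 had the lowest of all 3. The 9 trophoblast markers in the table, 8 of them with a read in at least 1 library, were led by *Ascl2* at a mean of 3.53 RPKM. They summed to 1.42, 1.14, 0.862, 0.225 and 1.37 RPKM in the WT libraries, to 21.1, 14.0, 12.9, 16.7 and 14.4 RPKM in the Tie2-Ezh2-KO libraries in the same order, and to 0.536 to 2.13 RPKM in Vav-Ezh2-KO EMPs. Nearly all of the mean sum of 15.8 RPKM in Tie2-Ezh2-KO was *Ascl2*, at 8.50 RPKM, and *Esx1*, at 7.03 RPKM. Limma tested 5 of these markers there and called those 2, beside 2.73% of all genes. The list was chosen with earlier results of these data known, so nothing is read from that share. *Ascl2* and *Esx1*, both transcription factors of the placenta, rose by 3.08 ± 0.43 and 4.94 ± 0.31 (SE; limma, adjusted p = 0.000875 and 9.74e-07), whereas *Elf5* was at 0 in every library and *Cdx2*, *Gcm1* and *Prl3d1* had at most 3 reads in any. Of the visceral endoderm markers *Amn* was called, by 3.01 ± 0.45 (SE; limma, adjusted p = 0.00155). The 8 parietal endoderm markers in the table, all above 0, were led by *Sparc* at 5.65 RPKM and summed to 5.97 ± 0.621 RPKM in WT and 9.57 ± 2.05 in Tie2-Ezh2-KO (SD, n = 5 per group), with *Lama1* at no more than 3 reads. Of these *Pth1r* rose by 2.06 ± 0.44 (SE; limma, adjusted p = 0.0189), and its adjusted p was 0.0506 without Tie2-Ezh2-WT replicate 12, 0.0555 without Vav-Ezh2-WT replicate 4, 0.0533 without Tie2-Ezh2-KO replicate 7, 0.11 with Tie2-Ezh2-WT as sole control and 0.108 without the 2 libraries high in visceral endoderm markers, with log2 differences of 1.82 to 1.99. The part of these cell types in the values of *Fgf3*, *Fgf4*, *Fgf15* and *Ccnd1* was not tested.

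The summed RPKM of the remaining lists overlapped between WT and Tie2-Ezh2-KO. The 9 endothelial markers in the table, led by *Pecam1* at 16.7 RPKM, summed to 47.1 ± 5.47 RPKM in WT and 49.7 ± 5.85 in Tie2-Ezh2-KO EMPs, the 9 mesenchyme and mesothelium markers, led by *Pdgfrb* at 1.14 RPKM, to 2.33 ± 0.681 and 1.87 ± 0.169 RPKM, and the 9 macrophage markers, led by *Lyz2* at 79.3 RPKM, to 81.8 ± 13.5 and 74.2 ± 4.51 RPKM (SD, n = 5 per group). In Tie2-Ezh2-KO 9, 4 and 7 of these markers were tested. Limma and limma-voom called 0 in each list, beside 2.73% and 2.39% of all genes. At an unadjusted p under 0.05 in limma were 2, 0 and 1, beside 11% of all genes. Of the 9 endothelial markers 8 were higher in sign, with a median log2 difference of 0.38 beside 0.01 over all genes, and the medians of the mesenchyme and macrophage markers tested were -0.23 and -0.15. The 1 endothelial marker that was lower was also the most abundant. This gene, *Pecam1*, an adhesion molecule also found on blood cells, averaged 18.2 RPKM in WT and 11.97 in Tie2-Ezh2-KO, with all 5 Tie2-Ezh2-KO libraries below WT (limma, adjusted p = 0.15; exact permutation test, p = 0.00794, the smallest it can give). *Esam*, another adhesion molecule, averaged 11.7 and 15.5 RPKM, with 4 of 5 libraries above WT (limma, adjusted p = 0.414), and the macrophage gene *Emr1* averaged 0.532 and 0.133 RPKM (limma, adjusted p = 0.3), both named after their values were seen. *C1qa* was at 0 in every library, and *Pdgfra*, *Wt1* and *Timd4* had at most 3 reads in any. The 8 megakaryocyte markers, all above 0, summed to 148 to 360 RPKM in WT and 174 to 296 RPKM in Tie2-Ezh2-KO EMPs, and *Gp1ba* among them fell by 0.94 ± 0.24 (SE; limma, adjusted p = 0.0495), a call that held in 6 of 21 alternatives. With 1 library left out it held without Tie2-Ezh2-WT replicate 12 or Tie2-Ezh2-KO replicate 13 and was lost without any other (0.064 to 0.146). It was also lost without the 2 libraries high in visceral endoderm markers (0.25), with Tie2-Ezh2-WT as sole control (0.231), in limma-voom (0.162), without a filter (0.0802), without trend (0.0641), at a pseudocount of 1 (0.0605) and with a filter of a mean of at least 1 RPKM (0.0538), at log2 differences of -0.94 to -0.76. Over the 9 lists limma tested 64 markers in Tie2-Ezh2-KO and called 7, with 17 at an unadjusted p under 0.05 and 4 called by limma-voom, beside 2.73%, 11% and 2.39% of all genes. In Vav-Ezh2-KO it called 0 of 57, with 4 at an unadjusted p under 0.05 and 0 called by limma-voom, beside 0.00733%, 7.93% and 0% of all genes.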

How the data were processed

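RNA-seq of 15 EMP libraries was analysed from the 1 deposited table. The authors aligned 75 bp single-end reads to GRCm38 with TopHat 2.0.13, kept 1 alignment per read, counted RefSeq genes with featureCounts and deposited linear RPKM for 17454 genes. Reads were recovered from the RPKM steps, and all 16877 genes above 0 came out whole within 0.001. In genes above 0 in at most 3 libraries reads can share a factor, and 381 of these, *Fgf4* among them, were given the multiple of the smallest length that matched a RefSeq transcript. Differences were tested with limma 3.58.1 (R 4.3.3, eBayes with trend) on log2(RPKM + 0.2), for genes above 0.2 RPKM in at least 1 library, with Benjamini-Hochberg adjustment, each knockout against 5 WT libraries. It was tested on simulated data. Single genes were tested by two-sided exact permutation in Python 3.11.15. The members and lists were chosen with earlier results of these data known.

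Named genes are the members, the 3 nearest neighbors on each side, genes between the members and called neighbors within 1 Mb, the called and 3 most abundant genes of each of 7 lists, the 5 genes most like each member, and the most abundant gene, called genes and markers at 0 of each of 9 marker lists. The kinase receptors, *Klb*, *Nkd2*, *Sva* and 6 markers were named after their values were seen, and 3 genes that the rule names are not reported here. Alternatives were pseudocounts of 1 and 0.05, other filters, scalings, controls and models, and leaving out each library.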

Additional observations from a re-analysis of the deposited data

Results flagged for a closer look

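For 62 named genes each group (WT and either knockout) was searched for a library that stood apart from the other 4, by the gap to its nearest neighbor as a share of the range (Dixon's 95% limit). This was so in 29 of 186 groups. In 12 of the 29 the other 4 libraries were at 0, where any read sets a library apart, and 10 of those 12 rested on 5 reads or fewer. Chance alone gives about 1 in 20 for values well above 0, so nothing is read from the number of such groups. Among the genes of the chromosome 7 cluster, *Fgf4* stood apart in Tie2-Ezh2-KO replicate 7 (0.290 RPKM, the others at 0 to 0.0410), *Fgf15* in Tie2-Ezh2-WT replicate 12 (0.162 RPKM, the other WT libraries at 0) and *Ccnd1* in Vav-Ezh2-KO replicate 26 (1.35 RPKM, the others at 0.156 to 0.453).

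Among the neighbors such values rested on 1 to 5 reads, namely *Shank2* in Tie2-Ezh2-KO replicate 13 (0.0159 RPKM), *Ano1* in Vav-Ezh2-KO replicate 26 (0.0944), *Bc1* in Tie2-Ezh2-KO replicate 17 (0.212), and *1810010D01Rik* in Tie2-Ezh2-WT replicate 4 (0.411) and Tie2-Ezh2-KO replicate 17 (0.0665). In the FGF pathway *Fgf13* was high in Tie2-Ezh2-KO replicate 11 (7.12 RPKM), *Fgfrl1* in Vav-Ezh2-KO replicate 9 (1.98) and *Nras* in Vav-Ezh2-KO replicate 1 (63.1).

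Tie2-Ezh2-KO replicate 7 stood apart for *Pax9* (0.293 RPKM), *Gm996* (0.281) and *Psg22* (0.335), which is no finding of its own, since these genes were chosen for their likeness to *Fgf4*, whose level that library sets. The other cases among the genes most like the 4 were *Hoxb13* in Vav-Ezh2-KO replicate 10 (0.226), *Msx2* and *Gm996* in Vav-Ezh2-WT replicate 4 (0.0932 and 0.0287), *Aebp1* in Vav-Ezh2-KO replicate 26 (0.258), and *Tcf15* in Vav-Ezh2-WT replicate 6 (1.88) and, low, in Tie2-Ezh2-KO replicate 13 (3.96).

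Among the markers *Trf* was high in Tie2-Ezh2-WT replicate 4 (48.9 RPKM) and Tie2-Ezh2-KO replicate 7 (51.6), and so was *Amn* (0.798 and 4.66). *Amn* also stood apart in Vav-Ezh2-KO replicate 10 (0.176), *Esx1* in Tie2-Ezh2-WT replicate 4 (0.180) and Vav-Ezh2-KO replicate 9 (0.543), and, low, *Pecam1* in Tie2-Ezh2-KO replicate 9 (6.67) and *Sparc* in Tie2-Ezh2-WT replicate 12 (4.35).

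The effect of each knockout against the WT of its own Cre line was compared in a limma interaction for 39 named genes other than the 4 and their most similar genes, and 2 passed an adjusted p of 0.05 over all genes tested. Of all 14394 genes tested 26 passed it, and 942 were at an unadjusted p under 0.05. The effect was higher in Tie2-Ezh2-KO by 6.41 ± 1.24 (SE) on the log2 scale for *Hba-x* (adjusted p = 0.0457) and by 4.31 ± 0.65 (SE) for *Esx1* (adjusted p = 0.011), both of which were named because limma called them in Tie2-Ezh2-KO.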

How the results depend on the processing

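No paired analysis was possible because any 2 groups share at most 1 replicate number. The number of genes called in Tie2-Ezh2-KO, 386, stayed within 1.5 times in 18 of 21 alternatives. The exceptions were 240 with a filter of a mean of at least 1 RPKM, 187 with the Tie2-Ezh2-WT libraries alone, where fewer libraries enter, and 217 without the 2 libraries high in visceral endoderm markers, chosen after seeing the data. Leaving out 1 library gave 262 to 438. In Vav-Ezh2-KO limma called 1, 2 with the Vav-Ezh2-WT libraries alone, 0 in limma-voom and 1 to 2 with 1 library left out. The 1 FGF pathway gene called became 0 with the Tie2-Ezh2-WT libraries alone and without the 2 libraries high in endoderm markers, and stayed 1 (1 to 1) with any library left out. The 1 neighbor called became 0 without a filter, without trend, with the Tie2-Ezh2-WT libraries alone and without those 2 libraries, and 0 to 2 with 1 library left out; the cause was not tested. The log2 differences of *Fgf3*, *Fgf15* and *Ccnd1* in Tie2-Ezh2-KO, whose sign the choice of these genes fixes, ran from 1.98 to 2.52, 1.79 to 5.99 and 0.94 to 1.65. In Vav-Ezh2-KO that of *Fgf3* turned to -0.11 with the Vav-Ezh2-WT libraries alone. That of *Fgf4* in Tie2-Ezh2-KO ran from 0.09 to 1.49 over the 18 alternatives that gave it a value. Depth limits *Fgf4* and WT *Fgf15*, where 3 reads are worth up to 0.0951 and 0.160 RPKM.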
